A study of Danio rerio with 14 samples.

Results

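Embryo batches 2 and 6 are 2 of the 7 batches of zebrafish embryos whose RNA was measured on Affymetrix Zebrafish Genome Arrays. Their members were found by the replicate number in the sample titles, which gave the control and the alcohol array of replicates 2 and 6, 4 of the 14 arrays in all. The other 10 arrays are the controls and alcohol samples of replicates 1, 3, 4, 5 and 8. All pools held about 20 whole embryos of the wild-type TL strain, collected at 8 h post fertilization (hpf). Control embryos were left untreated, and alcohol embryos were kept in 100 mM ethanol (0.6%) from 2 hpf, a treatment of 6 h. According to the methods, each experiment used the embryos of 1 breeding pair, so parents, age reached and any handling of a batch cannot be told apart, and no image or somite count of these pools was used here. Batches 2 and 6 were selected on their measured signals, because genes that come on during gastrulation were highest in them. The difference between these batches and the others is therefore given as a description, with no test, and supports nothing by itself.

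At 8 hpf a zebrafish embryo is in the middle of gastrulation. Transcripts that the mother stored in the egg are being cleared, the transcription factors Pou5f3, Nanog and Sox19b, which switch on the embryo's own genome, are giving way to regional genes, and cells move over the yolk while mesoderm and endoderm turn inward. In the following hours hox genes come on from the front of their clusters to the back, the neural plate is divided into eye, forebrain and hindbrain fields, presomitic mesoderm prepares for segmentation, and the yolk syncytial layer, a nucleated layer over the yolk, raises genes for lipid transport. A pool that is further along this course should hold more of the later transcripts and fewer of the earlier ones. In pools of whole embryos, fewer cells of a type and less RNA per cell cannot be told apart.

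Signals are MAS5 intensities on a linear scale, and differences are in log2 units, where 1 unit is a doubling. Over the arrays the median signal ran from 214 to 296, and 7943 to 9262 probe sets reached a signal of 200. The tests took every probe set with a signal of 200 or more on 3 or more of the 7 control or of the 7 alcohol arrays. Batches 2 and 6 give only 2 arrays of each treatment, so no gene passed through them alone. They can supply 2 of the 3 arrays needed, so a dim gene passed more easily if it was high in them. In all 9240 probe sets passed, which measure 6016 named genes and include probe sets with no symbol or several. The markers of whole embryos were there: in each of 10 cell classes, from notochord and neural plate to enveloping layer and germ cells, at least 1 marker was tested, and krt4 of the enveloping layer read 40100 to 51200 on all arrays. Median signal did not set batches 2 and 6 apart (8.05 against 7.95 in log2, two-sided exact permutation test over the 21 choices of 2 batches, p = 0.238). The log2 ratio of the 3' to the 5' GAPDH control probe sets averaged 1.84 in batches 2 and 6 and -0.178 in the others (exact permutation p = 0.0476, the smallest that 7 batches allow, and 0.19 after adjustment over 4 measures). The part of that ratio in the results below was not tested, and the 5' probe set was under 200 on 10 of 14 arrays. For acta1 the same ratio was 1.56 against 1.93 (exact permutation p = 0.81), but in the alcohol arrays alone it was 1.39 against 3.09 without overlap (exact permutation p = 0.0476, and 0.19 adjusted), the opposite direction to GAPDH. The acta1 probe sets were dim too, under 200 on 10 of 14 arrays for the 3' set and on 12 for the 5' set, so little can be read from this ratio.

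Batches differed in many genes when all 7 were compared. By limma's moderated F test with treatment in the model, 2058 of 9240 probe sets (22.3%) passed an adjusted p of 0.10. Lists below are counted by gene but set beside shares of all probe sets. Over the 6016 named genes the share called was 23.9%. At a signal minimum of 400 the test called 2113 of 6797 probe sets, a larger share, so lists of bright genes stand less far above their background than printed. The error in this test is the spread between the 2 pools of a batch, which came from the same parents. The values on which batches 2 and 6 were picked enter it, so the shares of lists and the adjusted p-values it gives for genes high or low in these batches are a description and do not support the choice. Among the 2058, batch 2 was the highest batch for 519 and batch 4 the lowest for 592, more than any other batch in each case. Both were often at the opposite end too, batch 2 as the lowest for 424 and batch 4 as the highest for 449. Batch 6 was the highest for 308 and the lowest for 249. With batches 2 and 6 left out altogether, so that the picked values did not enter, 812 probe sets (8.79%) differed between the 5 remaining batches. The first component of the batch means held 36.4% of their variance and ordered the batches 2, 6, 8, 5, 1, 3 and 4, with scores of 0.56, 0.45, 0.14, -0.04, -0.25, -0.33 and -0.54. Batches 2 and 6 stood at one end, batch 8 was their nearest neighbour and batch 4 stood at the other end.

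The calls over 7 batches depend on a setting of the test. Without a trend of variance with signal 752 probe sets were called (8.14%), among them 6 of 9 hox genes, 5 of 15 pluripotency, 8 of 28 yolk syncytial layer, 6 of 25 presomitic and 8 of 44 neural genes. Ribosomal protein (4 of 74), respiratory chain (6 of 83) and maternal genes (1 of 24) were then called at shares under that background. Shares close to it were those of ventral and lateral mesoderm (2 of 22, 9.09%), axial mesoderm (2 of 21, 9.52%), cell cycle (7 of 65, 10.8%) and enveloping layer (4 of 36, 11.1%). Of the genes chosen by the naming rule and called, apoa4b.1, hoxb3a, tbxta, gsc, chrd, six3b, otx2b, nanog, tbx6, tbx16l, klf2a, admp, szl, gata6, efhd2, org, ccnb1, serpina1l, tfa, ccna2, rpl5a, rpl34, rpl8, rps15a, atp5l and ndufs4 were called only with the trend.

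On 256 probe sets (2.77%) all 4 arrays of batches 2 and 6 were above all 10 others, and on 182 (1.97%) all 4 were below. Counted by named gene these shares were 3.21% and 2.36%. These counts follow from the way the batches were picked, as does the number past the threshold in a comparison of batch means, 447 (4.84%), of which 207 were higher (2.24%) and 240 lower (2.6%), and nothing is read from them. The other batches did not form 1 level. Batch 8 was the highest of the 5 for 138 of the 256 sets above and the lowest for 96 of the 182 below, while batch 4 was the lowest of all batches for 139 of the former and the highest for 91 of the latter.

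**Figure D1:**
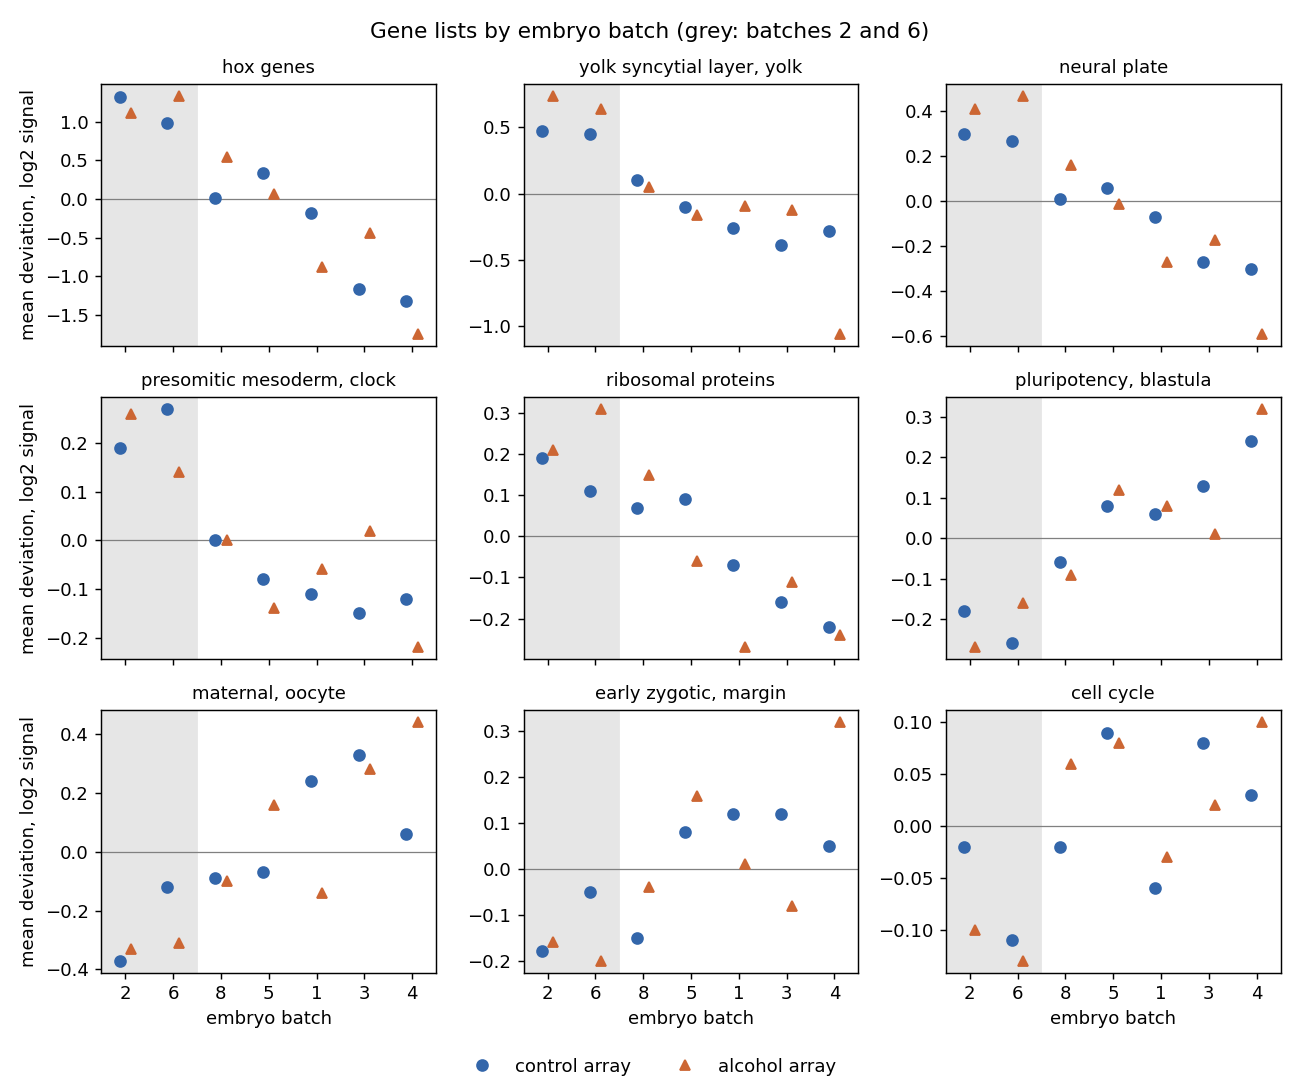
Mean deviation of 9 gene lists on each array from the mean of the arrays of its treatment (log2 signal, y axis), by embryo batch (x axis, ordered 2, 6, 8, 5, 1, 3, 4), with circles for control and triangles for alcohol arrays. Hox genes ran from 0.98 to 1.34 in batches 2 and 6 and from -1.75 to 0.55 in the others, and pluripotency genes ran the other way, from -0.27 to -0.16 against -0.09 to 0.32.

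Hox genes, which give cells their position along the body axis, showed the largest median difference of the 19 lists examined. Of 40 hox genes on the array 9 were tested, and all 9 were higher in batches 2 and 6, with a median of 1.68 beside 0.04 over all probe sets. The filter favours dim genes that are high in these batches, so this direction is partly fixed. Hoxb1a, for one, passed on the alcohol arrays of batches 2, 6 and 5 only (484, 301 and 290). For hoxb3a, a gene of the hindbrain, the arrays of batch 2 read 1410 (control) and 1240 (alcohol) and those of batch 6 read 1320 and 1030, against 23.0 to 913 with a median of 345 in the others. The difference was 2.06 ± 0.57 (SE, 2 against 5 batches). The posterior gene hoxc6a read 721, 604, 587 and 622 on the same arrays, against 6.40 to 362 with a median of 207, a difference of 2.62 ± 0.99. For hoxb9a, also posterior, the values were 771, 388, 1020 and 428 against 40.1 to 335. In each of these genes the 4 arrays lay above the 10 others, and so they did in hoxb7a (1.68 ± 0.47) and hoxb1a (1.40 ± 0.42). In batch 8 hoxb3a read 899 and 497, next below batches 2 and 6 by batch mean, and in batch 4 it read 287 and 23.0.

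The F test over all 7 batches, into which the picked values enter, called 8 of the 9 hox genes (88.9%, background 22.3%), from hoxc8a (adjusted p = 9.07e-06) to hoxb1a (0.0334). Over the 5 other batches alone it called 2 of 9 (22.2%, background 8.79%). The exception in the full test was hoxd4a, with an adjusted p of 0.97 and a difference of 0.48 ± 0.96. A further 31 hox genes were on the array but did not pass the filter, and 32 of their 41 probe sets were also higher in batches 2 and 6. In 2 of the 41 all 4 arrays lay above the 10 others. These 2 were the probe set of hoxc6b, with medians of 588 against 14.5, and 1 of those of hoxb10a, with 389 against 79.0. Both were among the 7 of these probe sets at 200 or more on at least 3 of the 4 arrays. A second probe set of hoxb9a was higher as well (2.60 ± 1.1), with overlapping arrays.

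**Figure D2:**
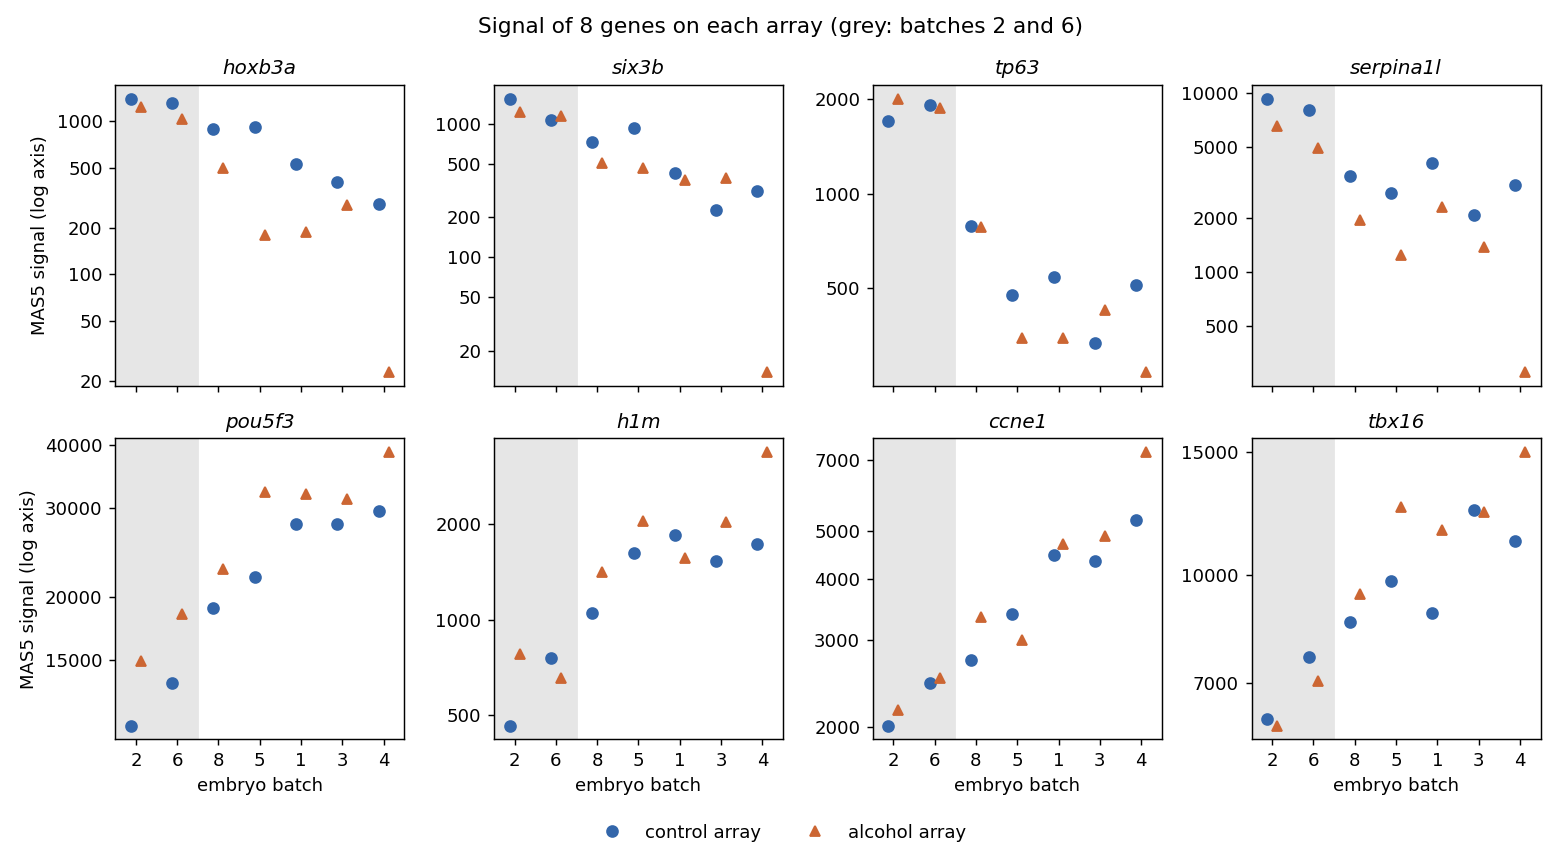
MAS5 signal (y axis, log scale, a different range in each panel) of 8 genes on every array, by embryo batch (x axis), with circles for control and triangles for alcohol arrays and grey for batches 2 and 6. In hoxb3a, six3b, tp63 and serpina1l the 4 grey arrays lie above the other 10, and in pou5f3, h1m, ccne1 and tbx16 they lie below.

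Of 44 tested genes of the neural plate 33 were higher in batches 2 and 6, with a median of 0.32, or 0.18 over the 37 genes left at a signal minimum of 400. The eye field gene rx3 read 1480 and 1110 in batch 2 and 1060 and 1150 in batch 6, against 11.8 to 963 with a median of 379, a difference of 2.00 ± 0.84. The forebrain gene six3b read 1540, 1220, 1070 and 1140 against 13.8 to 933 with a median of 410 (1.96 ± 0.67). For olig2, a gene of ventral neural progenitors, the values were 692, 608, 668 and 639 against 33.8 to 372 (2.22 ± 0.53). The arrays did not overlap in these genes, nor in irx1a (1.73 ± 0.40), the hindbrain gene meis3 (1.47 ± 0.29), six7 (1.03 ± 0.31), zic5 (0.91 ± 0.36) and otx2b (0.48 ± 0.13). Sox2 and sox3, expressed across the neural plate, differed by 0.02 ± 0.12 and 0.12 ± 0.13. Dimmer probe sets of sox3 went either way, at 0.35 ± 0.17 and -0.23 ± 0.30, and none of these was called. The F test called 23 of the 44 (52.3%, background 22.3%), with adjusted p from 8.45e-06 for meis3, and zic5 was not among them (0.27). Cyp26a1, an enzyme that breaks down retinoic acid, was not called either (adjusted p = 0.133, difference 0.32 ± 0.14).

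Presomitic mesoderm showed both directions. Of its 25 tested genes 16 were higher and 9 lower, with a median of 0.27 (0.18 at a signal minimum of 400). Over all 28 tested probe sets of these genes the median was 0.14. The F test called 14 of the 25 (56.0%, background 22.3%), and 6 without the trend (24%, background 8.14%). Over the other 5 batches it called 2 (8%, background 8.79%). Myf5, the first muscle regulatory gene to come on, read 885 and 610 in batch 2 and 893 and 852 in batch 6, against 146 to 550 with a median of 360, a difference of 1.38 ± 0.38 (F test adjusted p = 0.000416). Tbx6 read 938, 1340, 1340 and 928 against 104 to 839 (1.13 ± 0.35), with batch 8 at 722 and 839. Msgn1, a regulator of presomitic fate, read 23700, 20500, 24600 and 21400 against 12900 to 18300 (0.61 ± 0.12), but a second, much dimmer probe set of it differed by -0.17 ± 0.29 with overlapping arrays. Her9 (0.82 ± 0.17) and tbx16l (0.51 ± 0.14) also lay above without overlap.

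Tbx16, which mesoderm progenitors at the margin need to migrate inward, went the other way in the same list. Its arrays read 6220, 6090, 7640 and 7060 in batches 2 and 6 against 8570 to 15000 with a median of 11400, a difference of -0.71 ± 0.15 (F test adjusted p = 0.000279), and a second probe set gave -0.88 ± 0.24. Tbxta, the Brachyury gene of margin and notochord, was at -0.44 ± 0.17 with overlap (adjusted p = 0.0324, and 0.234 without the trend). The segmentation clock gene her1 differed by -0.06 ± 0.21 (adjusted p = 0.31).

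Axial mesoderm also held genes on either side. Fsta, which codes for follistatin, a secreted inhibitor of activins, read 1540 and 867 in batch 2 and 1060 and 1020 in batch 6 against 36.5 to 575 with a median of 191 (2.47 ± 0.65, F test adjusted p = 2.87e-05). Admp, a BMP-type ligand of the organizer, read 2390, 3770, 3560 and 3920 against 4170 to 5850 (-0.55 ± 0.14). Foxa1 lay above without overlap (2.39 ± 0.82), but most of its signals were under 200 and the F test did not call it (adjusted p = 0.293). It passed the filter on the control arrays of batches 2, 6 and 8 only (242, 263 and 204), so its direction is partly fixed. The prechordal plate gene gsc was at 0.55 ± 0.16 (adjusted p = 0.0205, and 0.149 without the trend) with 1 array of batch 8 inside the range of batches 2 and 6. Differences of the notochord genes noto and shha were -0.29 ± 0.13 and -0.22 ± 0.19, and chrd, an organizer gene that binds BMPs, was at -0.02 ± 0.17. Noto and shha were not called, and chrd was at 0.089 with the trend and 0.366 without. Over 21 axial genes the median was 0.08, or -0.09 over the 18 left at a signal minimum of 400. The F test called 8 (38.1%, background 22.3%), but 2 without the trend (9.52%, background 8.14%).

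Among genes of the nonneural ectoderm, tp63, the regulator of epidermal fate, gave one of the clearest separations. It read 1710 and 2010 in batch 2 and 1920 and 1870 in batch 6, against 269 to 787 with a median of 449, and batch 8 held the 2 highest of these others, 787 and 782. The difference was 2.05 ± 0.26 and the F test's adjusted p 7.42e-06. A second, dimmer probe set gave 0.88 ± 0.30 with overlap and was not called (0.318). Gata3 (4330, 4410, 4140 and 3850 against 1320 to 3080, 0.96 ± 0.17) and klf2a (0.68 ± 0.16) were above as well. Over the 19 genes of the list the median was only 0.12, with 13 higher and 6 lower. Of the 19 genes 10 were called (52.6%, background 22.3%), but 3 without the trend (15.8%, background 8.14%). Over the other 5 batches 2 were called (10.5%, background 8.79%). In ventral mesoderm the secreted BMP modulator szl read 8560, 5680, 5380 and 3470 against 1700 to 3350 (1.13 ± 0.18), while gata6 was below (1480, 1430, 1780 and 1440 against 1800 to 2620, -0.49 ± 0.13). The F test called 11 of the 22 genes of that list (50%, background 22.3%), but 2 without the trend (9.09%, background 8.14%). Over the other 5 batches it called 1 (4.55%, background 8.79%).

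Yolk syncytial layer genes were the second list by size. Of 28 tested genes 23 were higher, with a median of 0.89, and the F test called 20 (71.4%, background 22.3%). Serpina1l, a secreted protease inhibitor, read 9340 and 6600 in batch 2 and 8030 and 4980 in batch 6, against 277 to 4070 with a median of 2200, a difference of 1.91 ± 0.35. The fatty acid binding protein gene fabp2 read 15300, 11800, 13000 and 11300 against 455 to 8430 with a median of 3820 (1.93 ± 0.45, F test adjusted p = 5.92e-05). Neither gene's arrays overlapped, nor did those of apoa4b.1 (2.80 ± 0.65), fabp1b.1 (1.05 ± 0.26) and the transferrin gene tfa (0.86 ± 0.17). Fabp1b.1 had the smallest adjusted p of the list, 2.82e-06. Other apolipoprotein genes were closer to level: apoeb differed by 0.17 ± 0.08 and apoc1 by 0.09 ± 0.12, and neither was called. Within the 5 other batches 9 of the 28 genes were called (32.1%, background 8.79%), and batch 4 was the lowest of the 5 in 18. The summed signal of the tested markers fixed for this layer was 12900 to 27500 in batches 2 and 6 and 2010 to 14800 in the others, and the part of more yolk or yolk layer in a pool was not tested.

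**Figure D3:**
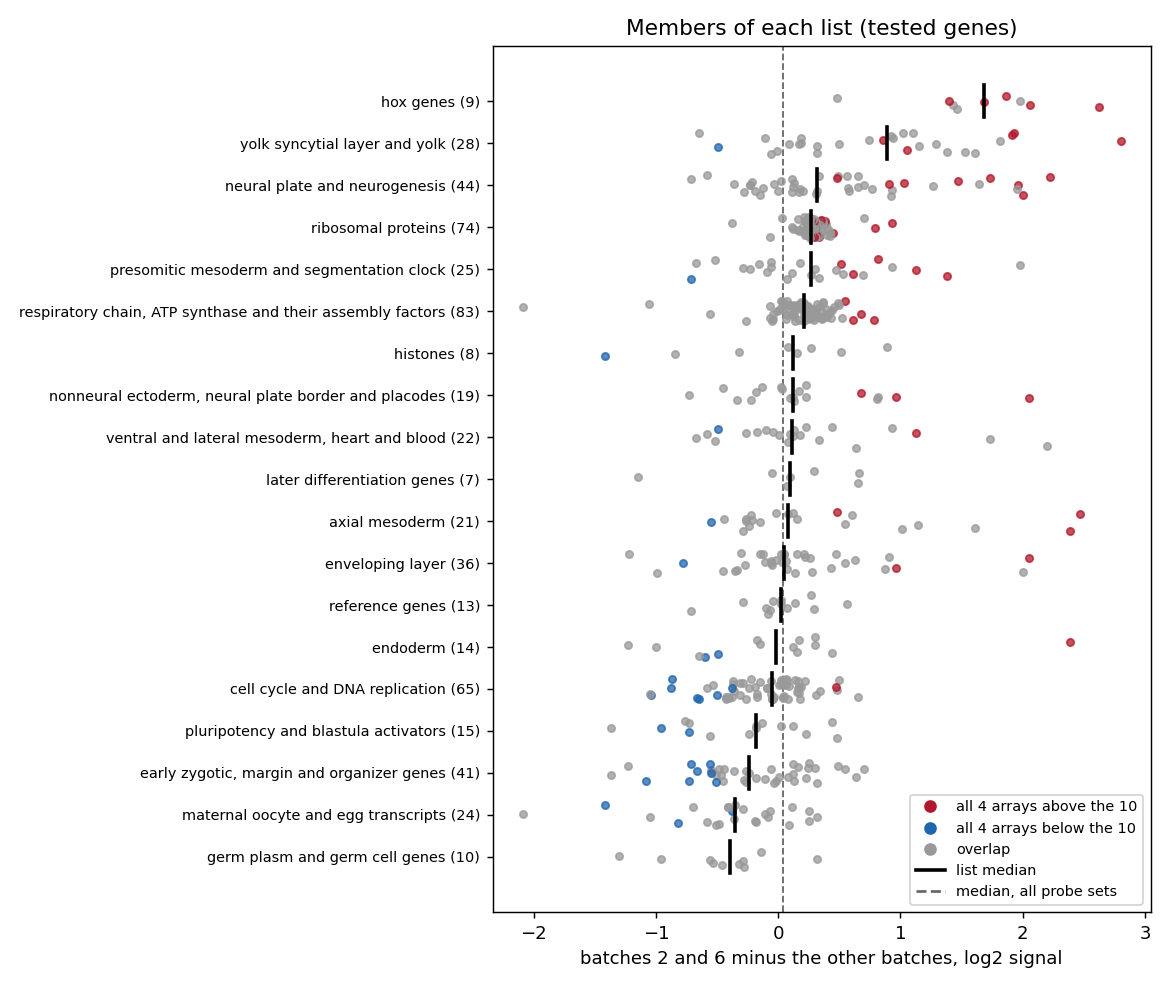
Difference of every tested list member between batches 2 and 6 and the other batches (x axis, log2 signal, over batch means), by list (y axis, number of tested genes in brackets), with red for genes whose 4 arrays lay above the other 10, blue for those below and grey for overlap. Black bars are list medians, from 1.68 for hox genes to -0.39 for germ plasm genes, and the dashed line is the median of all probe sets, 0.04.

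Many genes of the blastula and of the egg lay on the other side. Pou5f3, the Oct4-type factor that holds blastula cells uncommitted, read 11100 and 14900 in batch 2 and 13500 and 18500 in batch 6, against 19000 to 38700 with a median of 28800. The difference was -0.96 ± 0.16, with no overlap, and the F test gave an adjusted p of 1.97e-06. In batch 8 it read 19000 and 22700 and in batch 4 29600 and 38700. Mych, a myc family gene, read 2210, 2650, 2380 and 2780 against 3030 to 5380 (-0.73 ± 0.17). Nanog was at -0.56 ± 0.28 with overlap (adjusted p = 0.0172, and 0.209 without the trend). The median over the 15 genes of the pluripotency list was -0.18, and -0.01 with batch 6 left out. Of these 15 genes 10 were lower and 10 were called (66.7%, background 22.3%). These were not all the same genes, since sox19b, at 0.44 ± 0.34, was called with batches 2 and 5 the highest. Within the 5 other batches 7 of the 15 were called (46.7%, background 8.79%).

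Of 24 tested maternal transcripts 19 were lower, with a median of -0.35. H1m, the linker histone that the egg supplies, read 464 and 779 in batch 2 and 760 and 655 in batch 6, against 1050 to 3380 with a median of 1690 (-1.42 ± 0.22, F test adjusted p = 6.76e-05). The oogenesis-related gene org read 627, 427, 390 and 586 against 646 to 1460 (-0.82 ± 0.23), and the cyclin gene ccnb1 was below by less (-0.38 ± 0.12). Egg coat and oocyte genes such as zar1 (-0.11 ± 0.19) and zp3b (-0.07 ± 0.16) were closer to level. The F test called 9 of the 24 (37.5%, background 22.3%), but 1 without the trend (4.17%, background 8.14%) and 1 over the other 5 batches. Germ plasm and germ cell genes were lower in 9 of 10, with a median of -0.39 and none without overlap. Of these ddx4, the vasa helicase of germ cells, was at -0.96 ± 0.29 (adjusted p = 0.00195) and the chemokine receptor gene cxcr4b at -1.30 ± 0.39 (4.72e-05), both named after their values were seen.

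In the list for genes switched on at margin and organizer soon after genome activation, 26 of 41 were lower (median -0.24). All 4 arrays lay below the others in 7 (17.1%, background 1.97%) and above them in none, counts that follow from the choice of batches. Tbx16, admp and mych, described above, are 3 of these 7. Gdf3, the TGF-beta ligand vg1, was counted in this list although it is a transcript of the egg. It read 477, 494, 484 and 559 against 560 to 3670 with a median of 1050 (-1.08 ± 0.33). Its 4 arrays lay within a narrow span just under the lowest of the others, the control of batch 8. Fscn1a, an actin bundling gene of the early mesendoderm, read 2850, 3040, 2960 and 3000 against 3630 to 5940 (-0.66 ± 0.16), and foxd5 was at -0.56 ± 0.13. The F test called 19 of the 41 (46.3%, background 22.3%), and 6 without the trend (14.6%, background 8.14%). In the endoderm list sox32, which endoderm cells need to form, read 4090 and 6550 in batch 2 and 7290 and 7080 in batch 6 against 7010 to 22500 (-1.0 ± 0.22, adjusted p = 5.81e-05), with only the control of batch 8 inside that range. Its target sox17 differed by 0.17 ± 0.20 and was not called (0.963), nor was foxa3 (-0.15 ± 0.17, 0.115). Efhd2 lay below without overlap (-0.60 ± 0.15).

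Cell cycle genes showed little difference as a whole. The median over 65 genes was -0.05, with 29 higher and 36 lower. The F test called 27 (41.5%, background 22.3%), but 7 without the trend (10.8%, background 8.14%). Those whose 4 arrays lay below, 7 of 65 (10.8%, background 1.97%), were regulators of the start of DNA replication and of mitosis. Ccne1, the cyclin of S phase entry, read 2010 and 2160 in batch 2 and 2450 and 2510 in batch 6, against 2740 to 7250 with a median of 4420 (-0.88 ± 0.24, F test adjusted p = 1.54e-05). The replication licensing factors cdt1 (3280, 3310, 3240 and 3040 against 4220 to 8930, -0.87 ± 0.20) and cdc6 (-0.65 ± 0.15) were below, as were the mitotic genes cdca8 (-0.66 ± 0.15) and ccna2 (-0.50 ± 0.14). Birc5b also lay below (-1.04 ± 0.31) but was dim and not called (0.178). Only 1 gene of the list lay above (1.54%, background 2.77%), the clamp loader subunit rfc3 (0.47 ± 0.14, not called at 0.158).

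Ribosomal protein genes were higher by small steps. Of 74 tested genes 72 were higher in batches 2 and 6, with a median of 0.27. In 12 the 4 arrays lay above the others (16.2%, background 2.77%), and the F test called 56 (75.7%, background 22.3%). The largest was rpl22l1, with 13500 and 12500 in batch 2 and 13000 and 14200 in batch 6 against 5460 to 9480 (0.93 ± 0.16), followed by rplp2 (0.79 ± 0.19). Bright genes such as rpl34 (66300, 69300, 59700 and 67000 against 43000 to 59100) and rpl8 differed by 0.38 ± 0.11 and 0.35 ± 0.11. Under quantile normalization the list's median was 0.13 with 70 of 74 still above 0, and the count of calls rests on the variance trend, as given above. Of 83 genes of the respiratory chain 73 were higher, with a median of 0.21. Uqcrc2a of complex III read 1760, 1900, 1900 and 1750 against 671 to 1600 (0.78 ± 0.20), and the F test called 29 (34.9%, background 22.3%), but 6 without the trend (7.23%, background 8.14%).

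In the enveloping layer, the outer sheet of the embryo, the keratins were level: krt4 differed by 0.05 ± 0.09, krt5 by 0.14 ± 0.10 and krt8 by -0.02 ± 0.11. Of the 3 members without overlap, tp63 and gata3 (5.56% of the list, background 2.77%) were those described above. The adhesion gene epcam was on the low side (2.78%, background 1.97%). It read 8530 and 8790 in batch 2 and 9170 and 11700 in batch 6 against 12200 to 28500 (-0.78 ± 0.17). The list's median was 0.05 and 12 of 36 genes were called (33.3%, background 22.3%). Reference genes had a median of 0.02 over 13, although gapdh was lower (-0.71 ± 0.15, F test adjusted p = 0.000342). Of the 13 the F test called 5 (38.5%, background 22.3%), and 2 without the trend (15.4%, background 8.14%). Over the other 5 batches it called 3 (23.1%, background 8.79%), so shares of this size are not particular to developmental lists. Of 44 genes of later muscle, neuron and blood differentiation on the array, only 7 reached the filter. Their median was 0.10 and 1 was called (14.3%, background 22.3%).

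**Figure D4:**
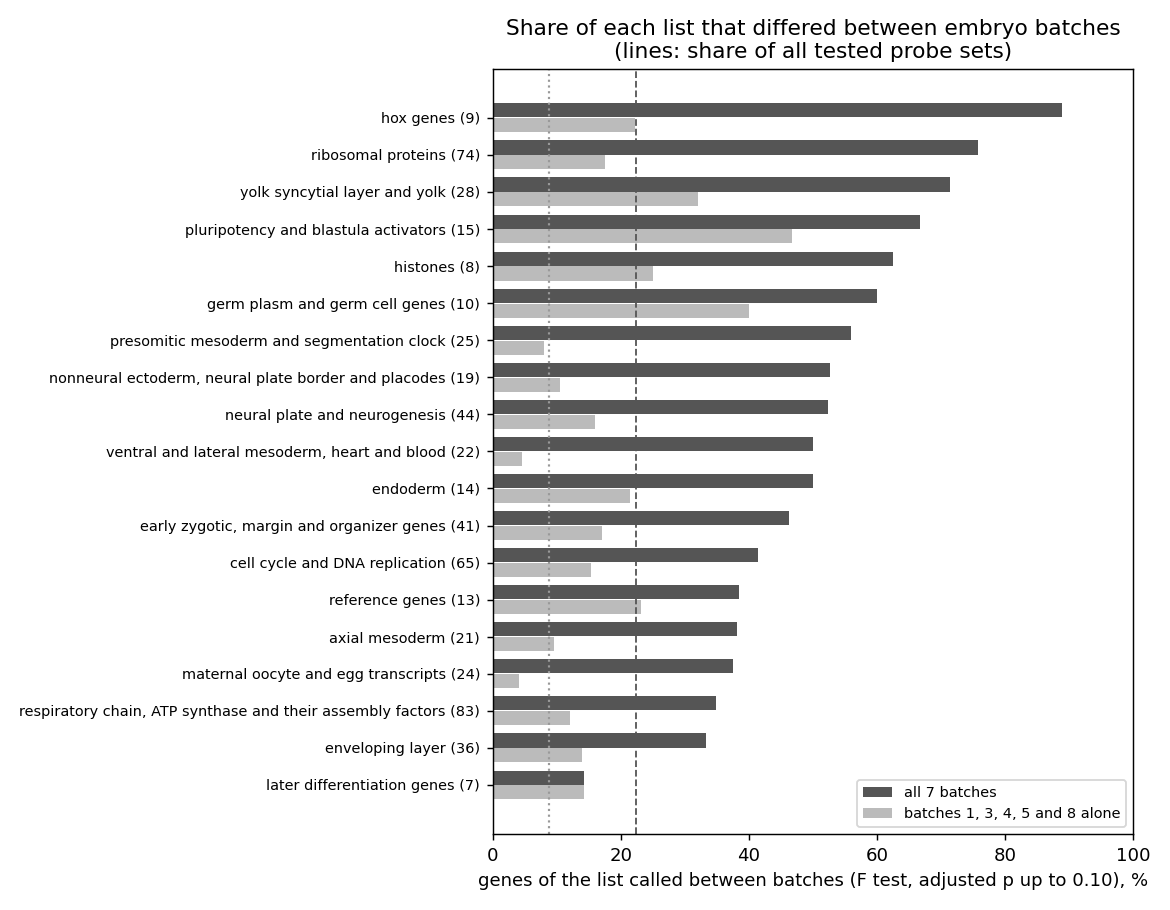
Share of each list's tested genes that the F test called between embryo batches at an adjusted p of up to 0.10 (x axis, %), over all 7 batches (dark bars) and over batches 1, 3, 4, 5 and 8 alone (light bars), with dashed and dotted lines for all tested probe sets, 22.3% and 8.79%. With all 7 batches, hox genes (88.9%), ribosomal proteins (75.7%) and yolk syncytial layer genes (71.4%) had the highest shares, which include the values that picked batches 2 and 6. Without a variance trend ribosomal proteins were at 5.41%, under the 8.14% of all probe sets.

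Among probe sets of 1 gene without overlap, those highest in batches 2 and 6 were myl10, at 2.90 ± 0.50, and si:dkeyp-1h4.9, at 2.84 ± 0.75, neither of them in a list. Myl10, a myosin light chain gene, read 839 and 816 in batch 2 and 705 and 443 in batch 6 against 51.4 to 250 with a median of 78.1. Batch 8 had the highest of these others, at 250 and 142. Myl10 passed the filter on the control arrays of batches 2, 6 and 8 only, so its direction is partly fixed by the filter. Si:dkeyp-1h4.9 read 1160, 911, 1300 and 790 against 24.0 to 470, and here batch 8 was the lowest, at 24.0 and 34.8. Nr2f5, a nuclear receptor gene of the hindbrain region, was at 2.61 ± 0.52, the cadherin gene cdh11 at 2.23 ± 0.75 and the complement gene c7b at 2.02 ± 0.34, with F test adjusted p of 0.00036, 0.000493 and 0.00155.

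Enzyme and transporter genes were among the lowest. Acsf2, an acyl-CoA synthetase gene, read 217 and 60.3 in batch 2 and 66.2 and 121 in batch 6 against 336 to 826 with a median of 622 (-2.46 ± 0.30). Cat, which codes for catalase, read 187, 93.8, 263 and 287 against 435 to 977 (-1.87 ± 0.30). Aldh18a1, an enzyme of proline synthesis, read 461, 786, 905 and 833 against 1600 to 4110 (-1.79 ± 0.23, F test adjusted p = 2.31e-06), and the mitochondrial carrier gene slc25a55a 1850, 2050, 1740 and 1540 against 3720 to 7240 (-1.56 ± 0.17, 3.05e-07). Dynll2b, a dynein light chain gene, was lower on both of its probe sets (-1.71 ± 0.43 and -1.44 ± 0.48), with batch 4 far above all other batches at 3670 and 4620 on the first and 7760 and 10800 on the second. The rest of the 12 lowest were stap2a (-1.79 ± 0.33), polh (-1.88 ± 0.54), slc14a2 (-1.67 ± 0.40), fam49ba (-1.62 ± 0.41), bnip4 (-1.57 ± 0.29) and tle3a (-3.18 ± 0.71). Tle3a read 13.2 to 27.3 on the 4 arrays and 85.5 to 268 on the others, and the F test did not call it (0.117). The largest difference of any probe set belonged to one with no gene name here, which read 15.3 to 167 in batches 2 and 6 against 7450 to 19400 (-7.26 ± 0.29). Its identifier shares its stem with that of the epcam probe set.

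Batch 2 was also compared with batch 6, in the fit of the F test. Both were picked for high values of gastrulation genes, so their likeness in those lists is partly fixed by the choice and nothing is read from it. The limma contrast called 14 of 9240 probe sets (0.152%), 4 higher (0.0433%) and 10 lower (0.108%) in batch 2, and 628 had an unadjusted p under 0.05. Of the list genes above, histh1l1 was the one called, and the list medians of batch 2 minus batch 6 lay between -0.17 and 0.15. Eif4a1a, a translation initiation gene, read 11300 and 12300 in batch 2 and 4840 and 4470 in batch 6 (1.34 ± 0.15, adjusted p = 0.000233), but a second, brighter probe set of it read 17300 to 26900 over all arrays and was not called by the F test. Scamp5a read 1340 and 1220 against 288 and 339 (2.03 ± 0.24, 0.000245), and the 2 arrays of batch 4, at 293 and 307, were as low as those of batch 6. Kdelr2a, an ER retrieval receptor gene, was higher in batch 2 by 1.12 ± 0.21. A second, brighter probe set of it gave 0.49 ± 0.16 and was not called (adjusted p = 0.492). Hspa12a, an HSP70 family gene, read 139 and 213 in batch 2 and 1540 and 916 in batch 6, with 1270 to 2620 in the others (-2.79 ± 0.27, 2.47e-05). Histh1l1, a linker histone gene, read 2860 and 2200 against 7740 and 6370 (-1.49 ± 0.23, 0.00439). Lemd1 (-3.32 ± 0.54), elovl8b (-1.78 ± 0.32), mfsd1l (-1.31 ± 0.20) and gid8b (-1.01 ± 0.21) were lower in batch 2, and zdhhc3a, at 119 and 210 against 14.5 and 20.7, was higher (3.19 ± 0.60). Second probe sets of elovl8b (-0.93 ± 0.31) and gid8b (-0.77 ± 0.30) were lower by less and were not called.

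**Figure D5:**
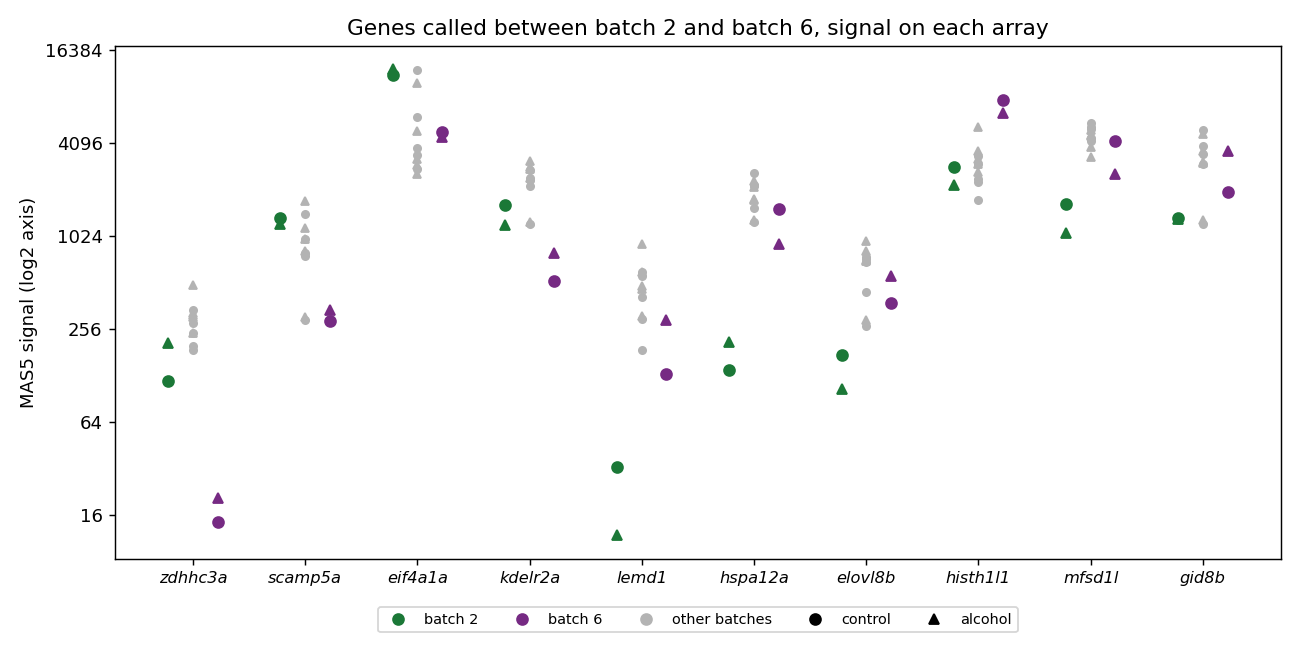
MAS5 signal (y axis, log2 scale) of the 10 genes named from those called between batch 2 (green) and batch 6 (purple), with the other batches in grey, circles for control and triangles for alcohol arrays. In lemd1 and hspa12a the 2 arrays of batch 2 lie below all others, and in zdhhc3a those of batch 6 do.

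Whether ethanol acted alike in these batches and in the others was tested on the 7 differences of alcohol minus control, which played no part in the choice. The limma comparison of 2 against 5 differences called 0 of 9240 probe sets (0%), with a smallest adjusted p of 0.791 and 409 probe sets at an unadjusted p under 0.05. With 2 batches on one side this does not show that the responses were alike. For hoxb3a the alcohol arrays stood 2.79 and the control arrays 1.32 apart between the groups of batches, with a low alcohol array of batch 4 (23.0). For foxa1 these values were 3.69 and 1.09, with the alcohol arrays of batches 3, 4 and 5 all low (15.5, 13.3 and 18.2). The list medians were close in both treatments for hox genes (1.66 in controls, 1.65 in alcohol) and further apart for yolk syncytial layer genes (0.63 and 1.01).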

How the data were processed

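RNA from 7 control and 7 alcohol pools was measured on 14 Affymetrix arrays, all labelled, hybridized and scanned together according to the methods. The deposited values are MAS5 signal intensities, which the authors scaled to a trimmed mean of 1000 on each array; the software version is not given in the sources used here. The table holds no detection calls, so a signal minimum of 200 took the place of the methods' filter on them. Of 15617 probe sets, 115 controls were left out, 10802 carried 1 gene symbol, 135 several and 4680 none.

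Signals were taken to log2. The F test over batches (limma 3.58.1 in R 4.3.3, treatment and batch as fixed terms, eBayes with trend) had 6 residual degrees of freedom and 12.7 prior ones. Batch 2 minus batch 6 is a contrast of the same fit, whose error is the spread between the 2 pools of a batch after treatment; these pools share parents. Batches 2 and 6 were set against the others on the 7 batch means, where treatment is balanced, with limma's moderated SE, and ethanol differences were compared as alcohol minus control within a batch. All adjusted p-values printed without another test's name come from limma with Benjamini-Hochberg adjustment over 9240 probe sets. The scripts were tested on simulated data.

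Replicate numbers were taken to mark the embryo batches that the methods describe, since the titles name no batch. Control and alcohol arrays of 1 number correlated by 0.11 to 0.38 in their deviations from the treatment means, against -0.28 to 0.28 between numbers. In batch 1, the lowest at 0.11, the control correlated best with the alcohol array of batch 3. The alcohol array of batch 1 correlated best with the control of batch 4. In every other batch each array correlated best with its own partner. P-values measure the spread between these pools.

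The members and the 19 gene lists were chosen with earlier results of these data known. Genes are represented by their brightest tested probe set, and some are in several lists. Named were up to 6 members per list without overlap, fixed stage markers, the 12 highest and 12 lowest probe sets without overlap and up to 6 each way between batches 2 and 6. Genes outside that rule (hoxc8a, hoxd4a, hoxc6b, hoxb10a, sox19b, zic5, rfc3, ddx4, cxcr4b, apoeb, apoc1, zar1, zp3b, krt5, krt8, gapdh, those of the closing section that differ in a single batch or on leaving one out, and the probe sets without a gene name) were named after their values were seen. Alternatives were quantile and median scaling, other signal minimums, an offset, no trend, single treatments, other handling of batch and leaving out each batch.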

Additional observations from a re-analysis of the deposited data

Results flagged for a closer look

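Of 240 sets of 7 arrays (97 named genes, 19 lists and 4 quality measures in each treatment), 16 (6.67%) held an array whose gap to its nearest neighbour was a large share of the whole range by Dixon's test. Chance flags about 1 in 20 sets, but many of these genes were named for being extreme in batches 2 and 6 or for differing between them, so neither that rate nor the 10 flags in batch 2 or 6 is a fair comparison. All 16 were the lowest array of their set.

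In batch 2, hspa12a stood at a log2 signal of 7.12 in the control (others 10.31 to 11.35) and 7.73 in the alcohol array (9.84 to 11.18). Mfsd1l stood at 10.69 (12.04 to 12.43) and 10.06 (11.34 to 12.27), and polh at 5.43 (7.31 to 8.31) and 4.51 (7.2 to 8.25). Lemd1 was low in the alcohol array, 3.57 (8.21 to 9.83). The mean deviation of the germ plasm list was -0.56 in the control of batch 2, with -0.02 to 0.32 in the other controls. In batch 6, zdhhc3a was low on both arrays, 3.86 (6.89 to 8.41) in the control and 4.37 (7.72 to 8.96) in the alcohol array.

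The alcohol array of batch 4 was the low one for cdh11 (3.26, others 7.79 to 10.08), six3b (3.79, 8.57 to 10.25), rx3 (3.56, 7.5 to 10.17), tbx6 (6.7, 8.86 to 10.38) and chrd (11.89, 12.62 to 12.83). These arrays are part of the lower ends given for the other batches. In the control of batch 3, hoxc6a was at 4.38 (7.34 to 9.49).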

How the results depend on the processing

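With 1 batch left out, the F test called 1520 to 2237 probe sets and the contrast of batch 2 with batch 6 called 10 to 16. Without a variance trend the F test called 752, and 26 named genes lost their call. The ethanol difference had 0 calls except without batch 2 (4: ap1m2, yod1, cax1 and 1 probe set with no gene name) and without batch 6 (1, with no gene name), a range of 0 to 4.

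The count for batches 2 and 6 minus the others, 447 in the fit on batch means, ran from 11 without batch 2 to 1008 without batch 8, with 45 without batch 6, 215 without batch 1 and 190 without batch 3. It was 15 without the trend, 166 in control and 218 in alcohol arrays alone, 1354 over 14 arrays with no replicate block, 896 with a random replicate block and 2196 with fixed batch effects as the replicate block. Median centring left 446, with 38.8% higher in place of 46.3%. The acta1 ratio difference was 0.972 in controls and -1.7 in alcohol arrays (exact permutation p = 0.0476).

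Chrd, near 0 throughout, was 0.01 under quantile normalization and -0.14 to 0.05 with a batch left out. Scamp5a ran from -1.38 to 0.66 and histh1l1 from -0.23 to 1.26, turning sign without batch 6. Genes near 0 also turned sign: krt4 (-0.11 under quantile normalization), sox2 (-0.01 under median centring) and her1 (0.12 without batch 2, 0.05 without batch 4). The other genes named by the rule kept their direction under these changes of scaling, filter, offset or trend and with a batch left out. Single treatments were not part of that check, nor were genes named outside the rule. Between treatments the sign differed in sox17 (-0.33 in controls, 0.68 in alcohol arrays) and chrd (-0.17, 0.12). It also differed in her1 (0.18, -0.31) and sox2 (-0.09, 0.14). Of the list medians 322 stayed within their spread between replicates and 20 did not. The cause was not tested. The F test over 5 batches and the list counts without a trend were chosen after seeing the data. Dim genes with signals near or under 200, and the 2 batches on one side, limit precision.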

Other observations

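A few probe sets set single batches apart, with both arrays of a batch at least 4-fold below all 12 others. Batch 2 had 3 (lemd1, hspa12a and tatdn2, the last at 13.2 to 29.2 against 136 to 396) and batch 6 had 2 (zdhhc3a and ndufaf8, a complex I assembly factor gene, at 7.47 to 11.2 against 91.4 to 265). Batch 3 had igf2bp1 (14.2 to 18 against 78.5 to 291) and si:dkey-82f1.1, batch 4 had 2 probe sets without a gene name, and batch 8 had 1, also without a name, at 7.41 to 115 against 8290 to 29600. Batches 1 and 5 had 0, and in no batch were both arrays 4-fold above all others.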
